A study of Mus musculus with 14 samples.

Results

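The spleens of mice that had received imiquimod on the ear were compared with the spleens of mice that had received it on the back, to find how the spleen differs between these forms of a psoriasis-like skin inflammation model. The comparison takes 8 of the 14 libraries of the series, 4 of each kind, and every entry of the deposited count table that carries a gene name, which is 22116 of 22740. All mice were wild type BALB/c females of 6 to 8 weeks, and all 14 libraries carry the same batch label. Mice of the imiquimod-ear group had a 5% imiquimod cream put on the ear each day for 5 days, and mice of the imiquimod-dorsal group had the same cream put on the skin of the back for as long. The weight of cream, the treated area and whether 1 or both ears were treated are not given in the labels, so the site of treatment and the dose cannot be told apart. Levels in 3 control mice, which had petrolatum on the back and ears, are given beside some results as a reference. Libraries are called by group and replicate number, ear 1, 3, 4 and 5 and dorsal 2, 3, 4 and 5; the missing numbers are not explained in the labels.

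Imiquimod is an agonist of Toll-like receptor 7, which senses single-stranded RNA in endosomes of plasmacytoid dendritic cells, B cells and macrophages and leads to interferon and cytokine production. The mouse spleen filters blood in its red pulp, where macrophages recycle the iron of old red cells, and houses B and T lymphocytes in its white pulp. Under stress the red pulp also makes red cells and granulocytes, and activated B cells there become plasma cells that secrete antibody.

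The 8 libraries held 34551193 to 40289411 counts over named genes, with 15862 to 16375 genes detected. In whole-spleen RNA, fewer cells of a type and less RNA per cell cannot be told apart, and this holds for every gene list below. All 10 genes listed as defining spleen were measurable. Some libraries stood apart. Ear 5 lay nearer to the controls than the other ear libraries did: on the first principal component of log2 CPM, a gene's counts scaled to library size, which held 56.67% of the variance, it stood at -30.98, beside control 5 at -33.22, while ear 1, 3 and 4 stood at 1.08, -4.94 and 4.42. The 4 dorsal libraries stood between 74.11 and 91.28. Ear 4 stood high on a list of skin and muscle genes, with a summed level of 1110 CPM against 2.21 to 6.24 CPM in the other 7 libraries. Without ear 4 the log2 fold change of ear over dorsal was 0.59 for Ckm and -0.47 for Tnnt3, both muscle genes. It was 2.71 for Krt14, a keratin gene, and none of these passed the test used below. Skin RNA in ear 4 is therefore not read from this sum. Dorsal 4 held RNA of pancreas genes, at 514 CPM against 6.95 to 16.2 CPM. The part of this muscle and pancreas RNA in the results on other genes was not tested, beyond the values given without these libraries.

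**Figure D1:**
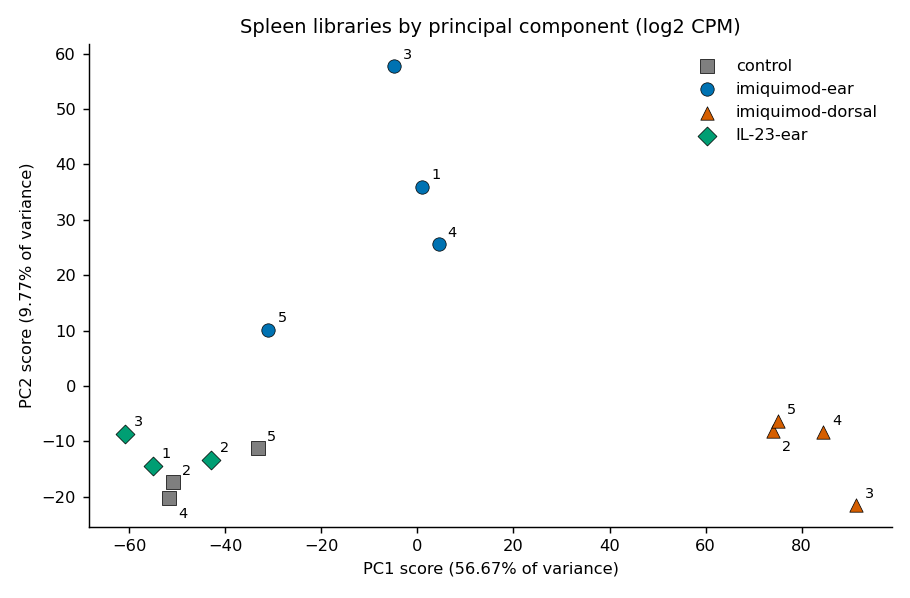
Scores of all 14 libraries on the first (horizontal axis) and second (vertical axis) principal components of log2 CPM, 1 point per library, marked by group, with 3 libraries of an IL-23-ear group of the series among them, and numbered by replicate. The 4 dorsal libraries lie between 74.11 and 91.28 on the first component; ear 5 lies at -30.98, near control 5, and the ear libraries lie between 10.19 and 57.78 on the second component, above all others.

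A large share of the measured genes differed between the sites. The quasi-likelihood test of edgeR was run on 15159 genes, and 3528 (23.3%) were higher and 3709 (24.5%) lower with ear than with dorsal treatment at an adjusted p under 0.05, 7237 (47.7%) in all. In 6511 genes (43.0%) the CPM ranges of the groups did not overlap, and 6067 of these passed the test. A difference of at least 2-fold was found for 1029 higher and 1059 lower genes, at least 4-fold for 311 and 314, and at least 8-fold for 84 and 93. The median log2 fold change over all tested genes was 0.02, and the middle 90% lay between -1.36 and 1.39. Fold changes below are ear relative to dorsal on the log2 scale, with their standard error (SE), and negative values are lower with ear treatment. The split depended on the scaling: with total counts in place of the TMM method, which sets library sizes by the bulk of genes, 6513 genes were higher and 2164 lower (75.1% higher, against 48.7%). That change shifts the median of all genes by 0.23, so small differences of whole lists are read against it.

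**Figure D2:**
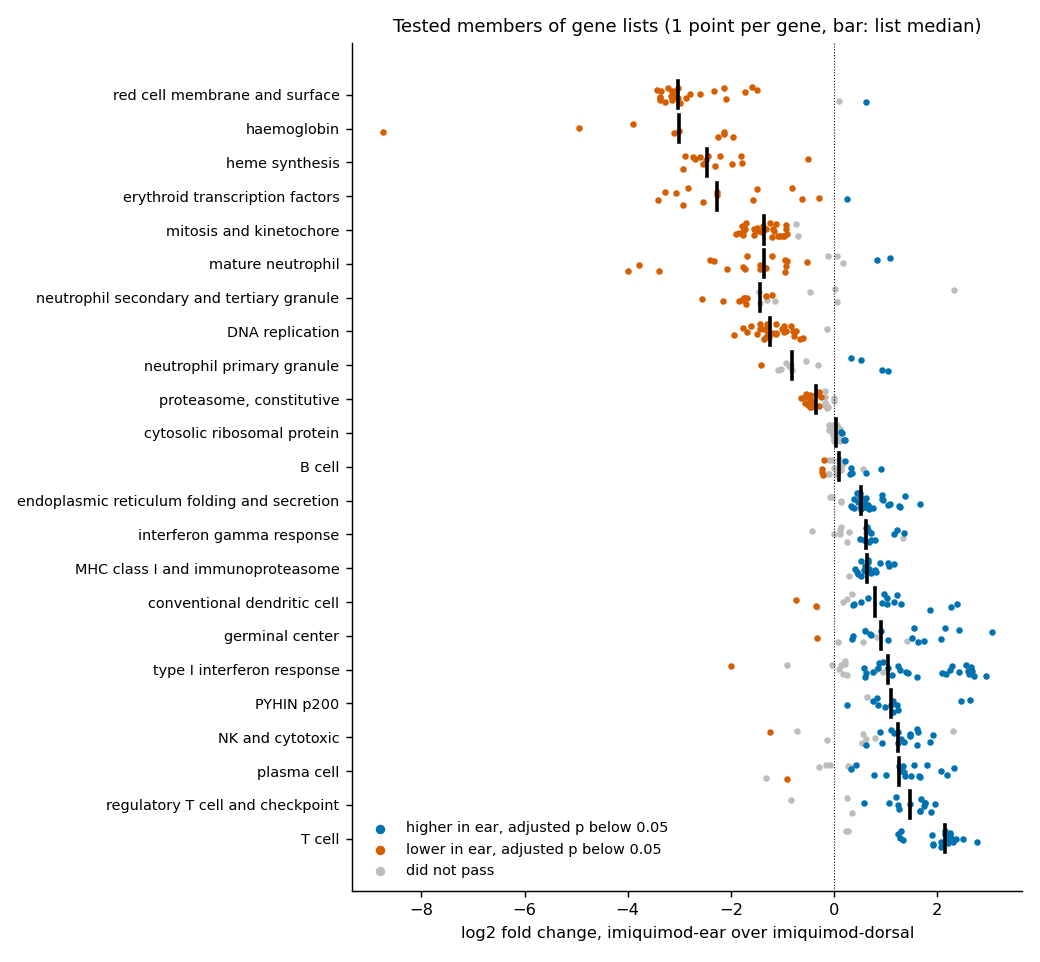
Log2 fold change of ear over dorsal (horizontal axis) of the tested members of gene lists, 1 point per gene, with the list median as a black bar; blue points passed as higher in ear, orange points as lower, and grey points did not pass. The medians of the lists shown run from -3.02 for red cell membrane genes to 2.14 for T cell genes, and few grey points appear in the red cell, mitosis and T cell lists.

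Genes of red cell formation were nearly all lower with ear treatment. Promoters of a pair of them are shown because they hold the short sequence bound by GATA factors, the erythroid regulators of this group. The letters AGATAA were searched on both strands, from 250 bases before to 50 bases after the transcription start, in GRCm39 with starts from GENCODE release 39. They were found in 5 of 14 heme synthesis, 8 of 26 red cell membrane, 3 of 9 haemoglobin, 2 of 14 erythroid transcription factor and 1 of 10 erythroid iron uptake promoters, against 8.22% of the promoters of 14813 tested protein-coding genes. The 200 bases before the start are printed 5′ to 3′ on the strand of the gene, with the match in capitals. Alas2, the first enzyme of erythroid heme synthesis, lies on the plus strand at chrX:149330171-149330370, and Slc4a1, the band 3 anion exchanger of the red cell membrane, on the minus strand at chr11:102256107-102256306. A match is a run of letters and not a measured binding site.
Alas2: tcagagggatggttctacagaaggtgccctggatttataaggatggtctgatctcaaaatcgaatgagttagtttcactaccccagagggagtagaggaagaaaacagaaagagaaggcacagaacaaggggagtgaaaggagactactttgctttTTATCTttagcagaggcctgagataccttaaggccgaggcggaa
Slc4a1: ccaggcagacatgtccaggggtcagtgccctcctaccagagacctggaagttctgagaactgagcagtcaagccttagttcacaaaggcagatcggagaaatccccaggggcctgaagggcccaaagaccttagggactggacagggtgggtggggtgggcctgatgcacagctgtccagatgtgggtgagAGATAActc

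Of 26 tested genes of the red cell membrane and surface, 24 were lower, 1 was higher and 1 did not pass, with a median of -3.02. All 9 haemoglobin genes were lower (median -3.00), as were all 14 genes of heme synthesis (median -2.47) and all 10 genes of iron uptake and erythroblast signals (median -2.44). Of 14 erythroid transcription factor genes 13 were lower (median -2.27), and of 13 genes of organelle clearance in maturing red cells 11 were lower (median -1.32). In each of 3 lists 1 gene was higher: Slc2a1, a glucose transporter used by many cells, at 0.62 ± 0.10 (adjusted p = 0.000183), Cbfa2t3, a corepressor also used by other blood cells, at 0.25 ± 0.09 (adjusted p = 0.034), and Fundc1, a receptor for the removal of mitochondria, at 0.27 ± 0.08 (adjusted p = 0.0159). Ear 4 was the highest ear library for 75 of these 86 genes and ear 3 the lowest for 59, and dorsal 3 was the highest dorsal library for 76. Without ear 4 the haemoglobin median was -3.99 and the red cell membrane median -3.77. With ear 5 and dorsal 4 both left out, 5 of the 9 haemoglobin genes passed.

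Tfrc, the receptor that brings transferrin-bound iron into erythroblasts, stood at 234, 132, 419 and 136 CPM in ear 1, 3, 4 and 5 and at 1470, 2160, 1820 and 1530 CPM in dorsal 2, 3, 4 and 5. The lowest dorsal library was above the highest ear library, and the ear values spread around and above the control level of 125 ± 26.1 CPM (SD, n = 3). The log2 fold change was -2.92 ± 0.35 (adjusted p = 4.69e-05). Slc4a1 stood at 270, 92.1, 962 and 223 CPM in the ear and at 3780, 5560, 3540 and 3130 CPM in the dorsal libraries. Again the groups did not overlap, with ear 4 the nearest to the dorsal group. Its log2 fold change was -3.37 ± 0.90 (adjusted p = 0.00939), and it missed the threshold with ear 5 and dorsal 4 left out (-3.24, adjusted p = 0.0532). Alas2 stood at 177, 84.6, 589 and 210 CPM against 1280, 1780, 1220 and 981 CPM, the same order of groups with ear 4 again on top of the ear libraries. Its difference was -2.31 ± 0.64 (adjusted p = 0.011; adjusted p = 0.0601 without ear 5 and dorsal 4).

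Erfe encodes erythroferrone, the erythroblast hormone that lowers hepcidin. Its level was 1.69, 0.632, 3.14 and 0.427 CPM in the ear and 20.3, 67.5, 50.6 and 60.7 CPM in the dorsal libraries. The 2 groups were far apart, and dorsal 2 was the lowest of its group. The log2 fold change was -5.08 ± 0.70 (adjusted p = 0.000129). Epor, the erythropoietin receptor, differed by -2.62, and the erythroid transcription factors Gata1 and Klf1 by -2.92 and -3.27; all 3 passed. Hba-a1, an adult alpha globin, stood at 5230, 2500, 15900 and 5580 CPM against 36800, 43400, 33400 and 25900 CPM, without overlap (-2.26 ± 0.60, adjusted p = 0.00943). It is nearly identical to Hba-a2, so reads may be divided between them, and it missed the threshold without ear 5 and dorsal 4 (-2.17, adjusted p = 0.0561). Hbb-y, an embryonic beta-like globin, had 0 counts in every ear library and 42, 11, 65 and 77 counts in the dorsal libraries. Against a floor of 3 counts per library, which is 0.0754 to 0.0862 CPM, it was at least 17.6-fold higher in the dorsal group, and the haemoglobin median stays at -3.00 with this gene set to that bound.

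The shares of all counts taken by 4 abundant classes, which are levels scaled to total counts and not by TMM, also separated the groups. Haemoglobin genes took 1.59%, 0.751%, 4.89% and 2.01% of counts in ear 1, 3, 4 and 5 and 8.74%, 10.4%, 8.39% and 6.69% in dorsal 2, 3, 4 and 5. The means were 2.31% ± 1.80 and 8.56% ± 1.53 (SD, n = 4 each), and the control mean was 2.45% ± 1.53 (n = 3). Immunoglobulin genes took the larger share in the ear group, with 4.08%, 4.44%, 3.06% and 3.51% against 1.98%, 1.27%, 1.62% and 2.06%. Mitochondrially encoded genes took 3.07% ± 0.228 against 2.47% ± 0.181, and cytosolic ribosomal protein genes 6.28% ± 0.188 against 5.22% ± 0.173. Each of the 4 shares separated the groups, with p = 0.0286 by a two-sided exact permutation test, which is the smallest value that 4 against 4 libraries allow, and 0.0286 after adjustment over the 4 shares. A share of a fixed total falls when another rises, so these 4 are not independent. Shares rest on total counts, and with TMM 4 of 32 listed ribosomal protein genes and 2 of 13 mitochondrially encoded genes were higher.

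**Figure D3:**
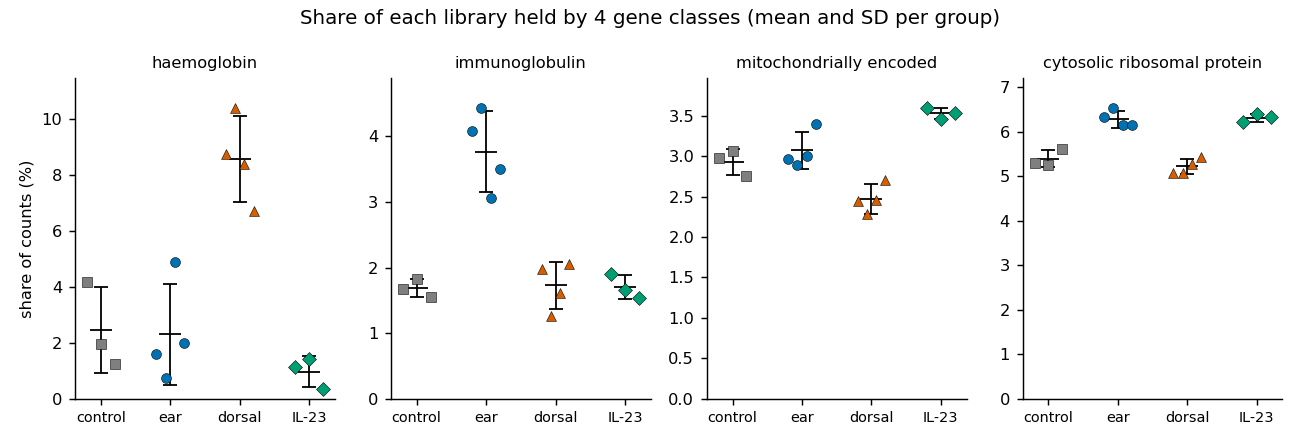
Share of all counts, in percent, in haemoglobin, immunoglobulin, mitochondrially encoded and cytosolic ribosomal protein genes (1 panel each, vertical axes from 0), 1 point per library in the control, ear, dorsal and IL-23-ear groups, with the group mean and SD. Haemoglobin is higher in every dorsal library, 6.69% to 10.4%, than in any ear library, and the other 3 shares are lower in every dorsal than in any ear library.

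Genes of cell division were lower with ear treatment together. The promoters of Ccnb2 and Cdk1, the cyclin B2 and the kinase that drive entry into mitosis, hold the letters of the cell cycle homology region. That element represses mitotic genes in resting cells, and whether these letters act as it was not tested. The letters TTTGAA, on either strand of the same window, were found in 16 of 30 mitosis promoters and 3 of 30 DNA replication promoters, against 14.1% of all tested. Ccnb2 lies on the minus strand at chr9:70328875-70329074 and Cdk1 on the minus strand at chr10:69188769-69188968. Each searched window held 2 matches, of which 1 lies in the printed bases and is marked by capitals.
Ccnb2: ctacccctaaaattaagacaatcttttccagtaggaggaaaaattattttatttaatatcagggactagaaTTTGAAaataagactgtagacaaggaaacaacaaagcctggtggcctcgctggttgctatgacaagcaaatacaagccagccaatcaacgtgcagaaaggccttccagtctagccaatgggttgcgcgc
Cdk1: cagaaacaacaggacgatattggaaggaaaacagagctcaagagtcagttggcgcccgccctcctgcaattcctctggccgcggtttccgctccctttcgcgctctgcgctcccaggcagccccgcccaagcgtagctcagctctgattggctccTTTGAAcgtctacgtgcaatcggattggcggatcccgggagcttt

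Of 30 genes of mitosis and the kinetochore 28 were lower (median -1.35), and of 30 genes of DNA replication 29 were lower (median -1.24); none was higher, in each case against 24.5% lower over all genes. Of 23 genes of the G1 phase and E2F factors 14 were lower and 4 higher (median -0.80). Mki67, a marker of dividing cells, stood at 575, 749, 615 and 262 CPM in the ear and at 1790, 2250, 1620 and 1580 CPM in the dorsal libraries. Ear 5 was the lowest library and the groups did not overlap (-1.72 ± 0.29, adjusted p = 0.000531). Pcna, the sliding clamp of replication, stood at 398, 431, 408 and 213 CPM against 896, 1010, 940 and 885 CPM, with the same low value in ear 5 (log2 fold change -1.36 ± 0.20). Ccnb2 stood at 62.1, 80.7, 81.2 and 32.1 CPM against 221, 243, 210 and 184 CPM (-1.74 ± 0.28, adjusted p = 0.000315), and Cdk1 differed by -1.49 ± 0.29 (adjusted p = 0.00125). Among the G1 genes, Ccnd3, the cyclin D used by erythroblasts and lymphocytes, was lower (-1.53), while Ccnd1 (0.70 ± 0.13) and Ccnd2 (0.50 ± 0.11), the other D cyclins, were higher.

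Granulocyte genes were lower with ear treatment in their late stages, and most early granule genes did not pass. Of 24 mature neutrophil genes 19 were lower and 2 higher (median -1.36), and of 18 secondary and tertiary granule genes 10 were lower and none higher (median -1.44). Of 13 primary granule genes, which are made by promyelocytes, 1 was lower, 4 were higher and 8 did not pass (median -0.81). The 4 higher ones were Srgn, Calr, Nkg7 and Cst7, which are also genes of the secretory pathway or of cytotoxic lymphocytes. The CPM of 10 of the 13 did not overlap between groups, against 43.0% of all genes, and with limma-voom 7 were lower. S100a8, a calcium-binding protein of neutrophils, stood at 67.4, 16.9, 73.1 and 78.9 CPM in the ear and at 161, 288, 174 and 161 CPM in the dorsal libraries. Ear 3 was far below the other ear libraries and dorsal 3 far above the other dorsal ones, without overlap. The log2 fold change of -1.73 ± 0.53 (adjusted p = 0.0184) missed the threshold without dorsal 3 (-1.48, adjusted p = 0.0548). Mmp8, the neutrophil collagenase, stood at 4.57, 1.41, 4.23 and 4.00 CPM against 14.6, 33.3, 17.1 and 18.8 CPM, with the same libraries at the extremes (-2.56 ± 0.46, adjusted p = 0.00071). Mmp9, the gelatinase of tertiary granules (-2.15), Itgam, the integrin CD11b (-1.71), and Retnlg, a resistin-like protein of neutrophils (-3.39), were lower. Ly6g, the surface marker of mouse neutrophils, was lower (-2.08 ± 0.61, adjusted p = 0.0142), and missed the threshold in the fit blocked by replicate number (-1.91, adjusted p = 0.0638). Mpo, the myeloperoxidase of primary granules, stood at 105, 39.4, 133 and 96.6 CPM against 172, 213, 155 and 142 CPM. The groups did not overlap but the spread within the ear group was wide, and the difference of -0.87 ± 0.47 did not pass (adjusted p = 0.149; limma-voom -0.98, adjusted p = 0.0325).

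Monocyte genes as a list stood near the shares over all genes, 23.3% higher and 24.5% lower: of 17, 4 were higher and 5 lower, with 3 lower under total counts. Of 22 genes of red pulp macrophages and iron recycling 9 were lower, 13 did not pass and none was higher (median -0.34). Scaling moved this list, with 4 higher under total counts, and 3 were higher without dorsal 3 or without ear 3. Ly6c2, the surface antigen of inflammatory monocytes that is also found on T and plasma cells, stood at 127, 109, 109 and 82.0 CPM in the ear and at 26.8, 25.5, 21.4 and 23.5 CPM in the dorsal libraries. The groups lay well apart and tight (2.13 ± 0.20, adjusted p = 5.98e-06). Fcgr4, an activating IgG receptor of monocytes and macrophages, went the other way, at 21.3, 18.7, 16.6 and 15.7 CPM against 160, 70.8, 85.8 and 96.3 CPM (-2.51 ± 0.28, adjusted p = 2.01e-05). Dorsal 2 was the highest library and no value overlapped. Fth1, the ferritin heavy chain that stores iron, stood at 1310, 1130, 1460 and 1190 CPM against 2600, 2930, 2580 and 2460 CPM, also without overlap (-1.05 ± 0.08, adjusted p = 1.72e-06). C3ar1, the receptor of complement fragment C3a, was lower at -2.87 ± 0.52 (adjusted p = 0.000528), with at most 1.06 CPM in the ear libraries.

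Interferon-stimulated genes were higher with ear than with dorsal treatment. The promoters of Rtp4 and Zbp1, an antiviral chaperone-like protein and a sensor of Z-form nucleic acid, are shown for the interferon-stimulated response element, where the STAT and IRF factors of the interferon response bind. The letters GAAANNGAAA, on either strand, were found in 18 of 37 type I interferon, 10 of 13 PYHIN, 10 of 19 guanylate-binding and immunity-related GTPase and 5 of 21 interferon gamma promoters, against 3.73% of all tested. Rtp4 lies on the plus strand at chr16:23428446-23428645 and Zbp1 on the minus strand at chr2:173060725-173060924. Capitals mark every match, and matches may overlap.
Rtp4: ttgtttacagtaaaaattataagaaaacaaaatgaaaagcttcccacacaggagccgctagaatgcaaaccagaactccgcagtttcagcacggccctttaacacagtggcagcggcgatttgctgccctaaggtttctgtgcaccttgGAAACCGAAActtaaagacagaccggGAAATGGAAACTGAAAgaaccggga
Zbp1: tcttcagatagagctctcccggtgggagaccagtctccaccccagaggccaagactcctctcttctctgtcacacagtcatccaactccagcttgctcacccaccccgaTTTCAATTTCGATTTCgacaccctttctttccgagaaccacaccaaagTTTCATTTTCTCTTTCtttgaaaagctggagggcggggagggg

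Of 37 type I interferon response genes 26 were higher, 1 was lower and 10 did not pass (median 1.05). Of 13 genes of the PYHIN family, which includes DNA sensors, 12 were higher (median 1.11). Without ear 5 and dorsal 4 the median was 0.76. Of 19 guanylate-binding proteins and immunity-related GTPases, which attack vacuoles of parasites and bacteria, 15 were higher and 1 lower (median 0.87), and of 21 interferon gamma response genes 12 were higher and none lower (median 0.62). These counts stand beside 23.3% higher over all genes. Psmb8, Psmb9, Psmb10, Tap1, Tap2, Tapbp and Nlrc5 of the interferon gamma list are also in the list of MHC class I and immunoproteasome genes below. The counts of those lists are therefore not separate results. Oas2, which makes the second messenger that activates RNase L, stood at 37.5, 12.9, 24.9 and 43.1 CPM in the ear and at 5.05, 2.63, 2.76 and 4.94 CPM in the dorsal libraries. Every ear library was above every dorsal one, and all 8 were low beside the control mean of 105 ± 44.0 CPM (SD, n = 3). The log2 fold change was 2.94 ± 0.45 (adjusted p = 0.000306). Irf7, the factor that amplifies type I interferon, stood at 164, 79.0, 173 and 211 CPM against 39.5, 28.9, 23.3 and 40.5 CPM, with ear 3 the lowest ear library (2.25 ± 0.36, adjusted p = 0.000345); the control mean was 603 ± 252 CPM. Ifit3, which binds viral RNA complexes, stood at 31.6, 13.9, 21.7 and 64.0 CPM against 5.73, 4.03, 4.33 and 7.69 CPM (2.59 ± 0.54, adjusted p = 0.00228). Ear 5 was highest and ear 3 lowest in its group for both Irf7 and Ifit3.

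Rtp4 stood at 43.2, 18.2, 40.6 and 74.6 CPM against 10.6, 5.35, 4.36 and 9.59 CPM (2.56 ± 0.43, adjusted p = 0.000541), and Zbp1 at 61.0, 44.5, 39.6 and 55.5 CPM against 26.2, 13.9, 17.7 and 24.9 CPM (1.28 ± 0.29, adjusted p = 0.00335). Neither overlapped between groups. Not all members moved together. Isg15, a ubiquitin-like modifier, stood at 68.7, 38.2, 104 and 87.6 CPM against 66.3, 68.5, 48.8 and 72.4 CPM, with overlapping groups (0.22 ± 0.37, adjusted p = 0.651). Rsad2, the antiviral enzyme viperin, stood at 46.1, 20.5, 229 and 95.8 CPM against 188, 269, 151 and 125 CPM, overlapping through ear 4 (-0.91 ± 0.60, adjusted p = 0.232). Isg20, an exonuclease, was the member that was lower (-2.0). Tlr7, the receptor of imiquimod, stood at 61.3, 48.8, 44.2 and 55.9 CPM against 26.7, 31.3, 28.1 and 28.6 CPM and was higher (0.87 ± 0.16, adjusted p = 0.000725). Of 20 listed Toll-like receptor and signalling genes, mostly endosomal, 5 were higher and 2 lower, near the shares over all genes. These counts became 10 and 0 with total counts, and 4 were lower without dorsal 3. Of the interferon genes listed, Ifnb1 had 0 counts in all libraries, and those of the alpha and lambda types had too few to test. Ifng, the type II interferon, stood at 0.792, 0.891, 0.756 and 0.855 CPM against 0.823, 0.480, 0.130 and 0.443 CPM, overlapping through dorsal 2, and did not pass (0.80 ± 0.39, adjusted p = 0.105).

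**Figure D4:**
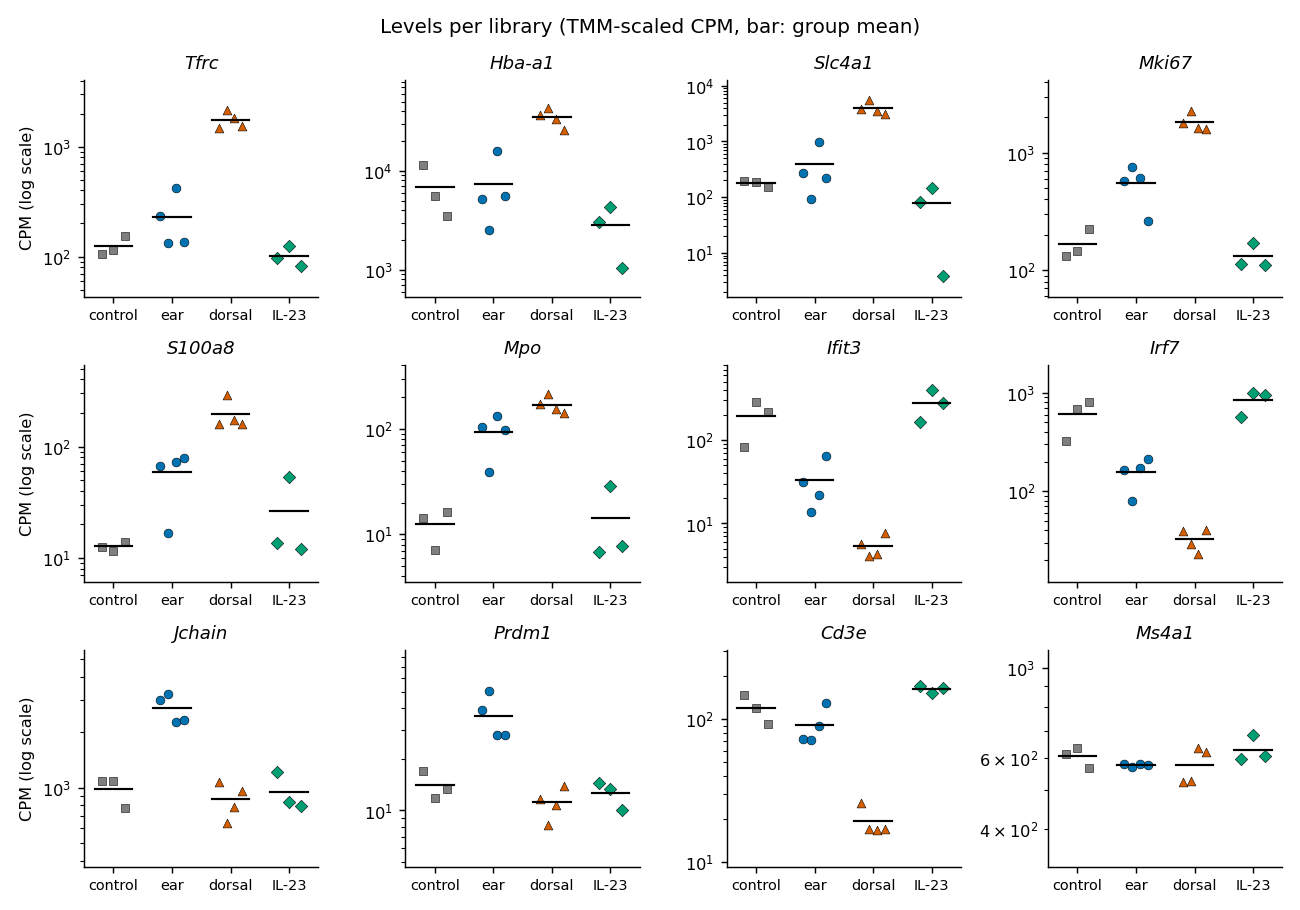
CPM on a logarithmic axis of Tfrc, Hba-a1, Slc4a1, Mki67, S100a8, Mpo, Ifit3, Irf7, Jchain, Prdm1, Cd3e and Ms4a1 in every library of the control, ear, dorsal and IL-23-ear groups, 1 panel per gene, 1 point per library, with the group mean as a bar. The dorsal libraries lie above the ear libraries in the panels from Tfrc to Mpo and below them in those from Ifit3 to Cd3e, and both groups overlap for Ms4a1.

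Genes of plasma cells and antibody secretion were higher with ear treatment. The promoters of Creld2 and Hsp90b1, a cysteine-rich secretory pathway protein and the chaperone GRP94, hold the letters of the endoplasmic reticulum stress element. XBP1 and ATF6 bind that element in the unfolded protein response. The letters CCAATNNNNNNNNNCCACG, on either strand, were found in 9 of 33 promoters of folding and secretion genes and 2 of 24 plasma cell promoters, against 0.115% of all tested. Creld2 lies on the plus strand at chr15:88703613-88703812 and Hsp90b1 on the minus strand at chr10:86541379-86541578, with matches in capitals.
Creld2: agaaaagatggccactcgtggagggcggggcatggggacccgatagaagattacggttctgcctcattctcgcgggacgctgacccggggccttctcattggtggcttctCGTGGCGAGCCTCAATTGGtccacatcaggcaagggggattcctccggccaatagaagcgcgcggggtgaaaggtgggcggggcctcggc
Hsp90b1: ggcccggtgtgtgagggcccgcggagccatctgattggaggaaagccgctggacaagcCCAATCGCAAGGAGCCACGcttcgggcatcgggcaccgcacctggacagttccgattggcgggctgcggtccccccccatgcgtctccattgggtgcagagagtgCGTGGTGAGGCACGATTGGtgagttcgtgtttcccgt

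Of 24 plasma cell genes 17 were higher, 1 was lower and 6 did not pass (median 1.27), and of 33 genes of folding and secretion 29 were higher and none lower (median 0.53). Jchain, which joins the units of secreted antibodies, stood at 2990, 3230, 2270 and 2330 CPM in the ear and at 1070, 643, 783 and 962 CPM in the dorsal libraries. The lowest ear library was above the highest dorsal one, and the control mean was 982 ± 176 CPM (SD, n = 3). The log2 fold change was 1.64 ± 0.20 (adjusted p = 3.13e-05). Prdm1, which encodes the plasma cell factor BLIMP1, stood at 38.9, 50.4, 27.7 and 27.9 CPM against 11.7, 8.16, 10.8 and 14.0 CPM (1.70 ± 0.22, adjusted p = 4.69e-05). Irf4, its partner in that switch, stood at 245, 265, 202 and 155 CPM against 55.7, 55.4, 65.5 and 62.5 CPM (1.86 ± 0.14, adjusted p = 1.7e-06). Neither overlapped, and ear 3 was the highest library for all 3 genes. Xbp1, the unfolded protein response factor of plasma cells, was higher by 1.13, and Sdc1, the surface marker CD138, by 1.36 ± 0.14. Creld2 stood at 232, 297, 186 and 151 CPM against 76.7, 50.4, 63.1 and 81.4 CPM (1.67 ± 0.21, adjusted p = 4.94e-05) and Hsp90b1 at 2620, 3170, 2000 and 1540 CPM against 1030, 729, 864 and 982 CPM (1.37 ± 0.20, adjusted p = 0.000144). In both genes no value overlapped and ear 3 was again on top. Tent5c, a poly(A) polymerase of plasma cells that erythroblasts also express, was the member that was lower (-0.91 ± 0.22, adjusted p = 0.00462).

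Antibody classes differed unevenly, and genes of the IgG subclasses are alike enough that reads may be divided between them. Of 12 constant region genes 6 were higher, none was lower and 6 did not pass (median 0.66). Ighm, the mu heavy chain, stood at 17600, 19000, 13700 and 14600 CPM against 9750, 6240, 7700 and 9770 CPM, without overlap (0.96 ± 0.14, adjusted p = 0.000146). Ighg3 stood at 328, 388, 229 and 138 CPM against 131, 100, 138 and 119 CPM (1.15 ± 0.25, adjusted p = 0.00259), and ear 5 was at the level of dorsal 4. The entry named Ighg2c stood at 575, 875, 160 and 124 CPM against 350, 165, 286 and 270 CPM. Ear 1 and 3 were above and ear 4 and 5 below every dorsal library, so the mean difference of 0.69 ± 0.55 did not pass (adjusted p = 0.317). Whether BALB/c mice carry this gene, or its reads come from a related IgG2 gene, was not tested. Ighg2b stood at 294, 429, 146 and 110 CPM against 486, 319, 479 and 464 CPM, with ear 3 inside the dorsal range (-0.84 ± 0.35, adjusted p = 0.0697), and did not pass. It passed as lower with DESeq2 (-0.83, adjusted p = 0.0472), with limma-voom (-1.02, adjusted p = 0.0189) and without ear 3 (-1.24, adjusted p = 0.00646). Of 193 tested immunoglobulin variable segments 136 were higher and none lower (median 1.00). The 10 most used segments held 26.6% to 31.1% of variable counts in the ear and 29.2% to 31.9% in the dorsal libraries, ranges that overlap.

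Germinal center genes were higher in part: 15 of 21 were higher, beside 23.3% over all genes, and 1 lower (median 0.90). Some members are also genes of other lists, such as Pdcd1 of checkpoint genes and Cxcr5, Cr2 and Fcer2a of B cells. Nuggc, a GTPase of germinal center B cells, stood at 6.84, 10.1, 2.75 and 2.99 CPM against 1.08, 0.416, 0.780 and 0.411 CPM (3.06 ± 0.54, adjusted p = 0.000518), and Mef2b, a transcription factor of these cells, at 13.1, 27.5, 7.73 and 5.83 CPM against 4.20, 1.15, 4.29 and 3.13 CPM (2.08 ± 0.47, adjusted p = 0.00318). In both, ear 1 and 3 were above ear 4 and 5, and all ear libraries were above the dorsal ones. Of 22 general B cell genes 6 were higher and 4 lower (median 0.09), near the shares over all genes. These counts became 13 and 0 with total counts, none was lower without dorsal 4 or with the replicate block, and 1 or 2 were lower without dorsal 5 or without any 1 ear library. Ms4a1, the B cell surface protein CD20, stood at 578, 568, 578 and 575 CPM against 523, 527, 634 and 619 CPM, and its difference of -0.00 did not pass (adjusted p = 0.984). Of 13 marginal zone B cell genes 8 were higher and 3 lower (median 0.53), beside 23.3% and 24.5% over all genes. That median was 0.40 without ear 5 and 0.76 with total counts. Mzb1 is also in the plasma cell list, and S1pr1 in the naive T cell and homing list.

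T cell and NK cell genes were higher with ear treatment. Of 26 T cell genes 24 were higher and none lower, with a median of 2.14, and of 99 tested variable segments of T cell receptors 87 were higher and none lower, also with a median of 2.14. The 2 T cell genes that did not pass were Cd2 (0.26 ± 0.10, adjusted p = 0.054) and Ubash3a (0.23 ± 0.13, adjusted p = 0.155), an adhesion molecule and a signalling inhibitor. Cd3e, a chain of the T cell receptor complex, stood at 72.9, 71.2, 89.8 and 129 CPM in the ear and at 26.0, 17.1, 16.6 and 17.1 CPM in the dorsal libraries. Ear 5 was highest and dorsal 2 was above the other dorsal libraries, without overlap, and the control mean was 120 ± 28.0 CPM (SD, n = 3). The log2 fold change was 2.24 ± 0.22 (adjusted p = 8.2e-06). Lef1, a transcription factor of naive T cells, stood at 60.5, 51.7, 85.6 and 117 CPM against 15.7, 14.6, 12.2 and 10.8 CPM (2.57 ± 0.26, adjusted p = 1.05e-05). The receptors Il7r (2.77), Cd28 (2.08 ± 0.15), Cd8a (2.27) and Cd4 (1.27) were higher.

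Of 17 regulatory T cell and checkpoint genes 14 were higher and none lower (median 1.47), and of 25 NK and cytotoxic genes 17 were higher and 1 lower (median 1.24). Foxp3, the factor that defines regulatory T cells, stood at 18.2, 23, 12.6 and 18.2 CPM against 8.88, 4.42, 4.91 and 4.43 CPM, with dorsal 2 above the other dorsal libraries and no overlap (1.66 ± 0.25, adjusted p = 0.000134). Ncr1, an activating receptor of NK cells, was higher by 1.24. Cd244a, a receptor of NK cells and some myeloid cells, was the member that was lower, at 16, 10, 14.4 and 14.9 CPM against 40.0, 26.0, 28.5 and 35.9 CPM (-1.24 ± 0.15, adjusted p = 2.85e-05). Gzmb, a granzyme, stood at 5.97 to 6.81 CPM in 3 ear libraries and 5.17 CPM in ear 3, below the dorsal range of 7.51 to 11.7 CPM, and did not pass (-0.72 ± 0.29, adjusted p = 0.0557). Of 16 genes of the type 17 axis 5 were higher and 1, Il6, lower, beside 23.3% higher and 24.5% lower over all genes. The median was 0.20, with 7 higher under total counts, and Il17a had 0 counts in every library.

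Genes of antigen presentation and of dendritic cells were higher more often than lower. Of 20 genes of MHC class I and the immunoproteasome 19 were higher and none lower (median 0.65), and of 15 MHC class II genes 7 were higher and none lower (median 0.21, 12 higher with total counts). H2-K1, a classical class I heavy chain, stood at 484, 597, 590 and 608 CPM in the ear and at 397, 248, 299 and 350 CPM in the dorsal libraries, without overlap (0.82 ± 0.13, adjusted p = 0.000224). By contrast 18 of 28 constitutive proteasome genes were lower and none higher (median -0.35); with total counts 8 were lower and 1 higher. Of 20 conventional dendritic cell genes 14 were higher and 2 lower (median 0.78), and of 15 plasmacytoid dendritic cell genes 8 were higher and 2 lower (median 0.75, and 0.51 without ear 4), with 4 lower without dorsal 3. Without ear 5 and dorsal 4 the conventional list had 9 higher. Some of the higher members are also genes of other lists, such as Cd8a of T cells, Irf4 of plasma cells and Irf7 and Bst2 of the interferon response. Siglech, of the plasmacytoid list, did not pass. It passed as higher with total counts (0.44, adjusted p = 0.0458) and without ear 3 (0.36, adjusted p = 0.0433). Clec9a, a receptor for dead cells on cross-presenting dendritic cells, stood at 17.1, 13.1, 16.6 and 26.0 CPM against 8.63, 6.91, 6.34 and 7.75 CPM (1.30 ± 0.18, adjusted p = 7.92e-05). The groups did not overlap, with ear 5 highest.

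Of 13 white pulp chemokine and lymphotoxin genes 8 were higher and none lower (median 0.77, and 0.47 without ear 5). Ccl19, a chemokine that draws T cells and dendritic cells, stood at 72.6, 78.0, 80.2 and 81.2 CPM against 38.5, 14.0, 21.2 and 20.8 CPM (1.72 ± 0.28, adjusted p = 0.000366), and the ear values were tight while dorsal 2 was nearest to them. Of 24 stromal and endothelial genes 6 were higher, near the 23.3% over all genes, and 1 lower, with 11 higher under total counts and 3 without dorsal 4 or without dorsal 5. Of 23 inflammatory cytokine and chemokine genes 4 were higher and 5 lower, no more often than over all genes, with 2 lower without dorsal 2 or without ear 3, and with a median of -0.17 that changed sign with total counts (0.05). Il6, an inflammatory cytokine, was lower (-2.47 ± 0.62, adjusted p = 0.00477), and Ccl22, a chemokine for regulatory T cells, was higher at 8.87, 6.98, 12.1 and 21.4 CPM against 2.87, 2.11, 3.19 and 1.23 CPM (2.39 ± 0.42, adjusted p = 0.00056).

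Set beside the controls, the gene lists fell into different orders of level, given as a description with no test. For 16.6% of all 15159 genes the dorsal libraries lay above overlapping ear and control libraries, and this was the order of 23 of 26 red cell membrane, 13 of 14 heme synthesis, 8 of 9 haemoglobin and 24 of 30 DNA replication genes. The order dorsal above ear above control, with no overlap, held for 4.33% of all genes and for 26 of 30 mitosis genes. Control above ear above dorsal held for 3.64% of all genes, for 24 of 37 type I interferon, 14 of 19 guanylate-binding and GTPase, and 9 of 13 PYHIN genes. Dorsal below overlapping ear and control libraries held for 11.3% of all genes and for 23 of 26 T cell and 14 of 25 NK and cytotoxic genes. Ear above both other groups held for 2.98% of all genes, for 19 of 33 folding and secretion, 13 of 24 plasma cell and 5 of 12 immunoglobulin constant genes. The reverse, ear below both, held for 1.1% of all genes and for at most 2 genes of any list.

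**Figure D5:**
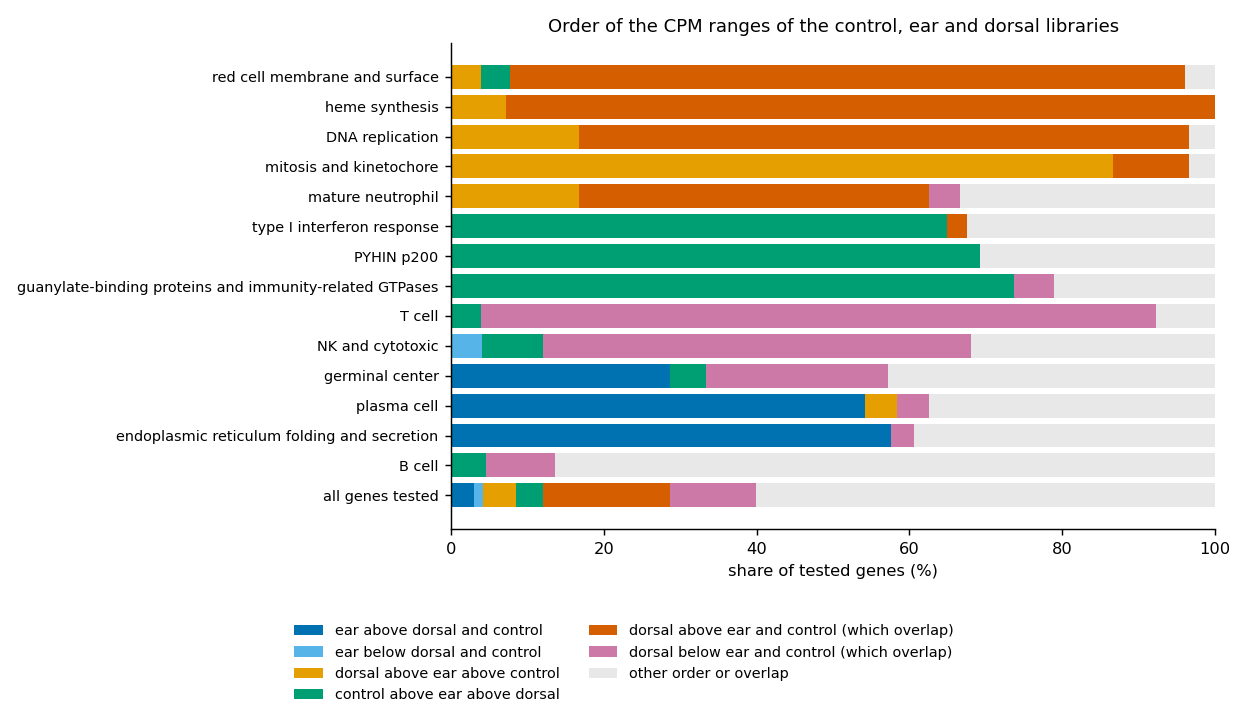
Share of tested genes, in percent (horizontal axis), in each order of the CPM ranges of the control, ear and dorsal libraries, as stacked bars for gene lists and for all genes tested. Red cell membrane and heme synthesis bars are mostly dorsal above overlapping ear and control, the mitosis bar is mostly dorsal above ear above control (26 of 30 genes), and the plasma cell bar holds ear above both in 13 of 24 genes.

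Stress and metabolic genes differed in both directions, and their counts stand beside 23.3% higher and 24.5% lower over all genes. Of 20 genes of the integrated stress response 11 were lower and 4 higher (median -0.59), the latter no more often than over all genes. Ppp1r15a, the phosphatase subunit that ends this response, stood at 46.7, 33.1, 117 and 50.3 CPM in the ear and at 307, 421, 265 and 255 CPM in the dorsal libraries (-2.34 ± 0.34, adjusted p = 0.000167). Ear 4 was again the highest ear library, and no value overlapped. Asns, asparagine synthetase, was lower by -2.27 ± 0.43 (adjusted p = 0.00122), and Eif2ak1, the heme-regulated kinase of red cell precursors, by -1.56. Of 19 cholesterol synthesis genes 13 were higher and 2 lower (median 0.50). Cytosolic ribosomal protein genes had a median of 0.05, with 4 of 32 higher. Mitochondrially encoded genes had a median of 0.07, with 2 of 13 higher, and both lists lay below the share over all genes. Without ear 5, 8 of the ribosomal protein genes were higher, and with total counts 31 and 13 of these lists were higher, so these counts rest on the scaling.

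Further single genes also differed by large amounts. Plek2, a pleckstrin of erythroblasts (-3.97), Sox6, an erythroid factor (-3.41), and Apol8, an apolipoprotein L (-3.65), were lower. Gfap, known from astrocytes, was lower (-3.33), as was Slc38a5, an amino acid transporter (-3.31). On the higher side stood Pou2af2, a coactivator known from tuft cells (3.35), Mmp12, the macrophage elastase (3.19), Slc16a5, a monocarboxylate transporter (3.06), Crisp3, a cysteine-rich secretory protein (3.04), and Scg5, a chaperone of hormone processing (2.99). Mybpc2 and Tnni2, muscle genes, were also among the largest, with ear 4 far above the rest: Mybpc2 stood at 3.01, 2.36, 71.0 and 3.95 CPM against 1.28 to 1.93 CPM, and Tnni2 at 3.38, 2.93, 74.5 and 3.27 CPM against 2.02 to 2.91 CPM. Without ear 4 the difference of Mybpc2 was 0.87 (adjusted p = 0.0311) and that of Tnni2 was 0.40 (adjusted p = 0.0955).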

How the data were processed

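Poly(A) RNA of whole spleen was sequenced after a library preparation that does not keep strand, per the labels' protocols, so reads of genes that overlap on opposite strands cannot be told apart. The deposited table holds raw read counts per gene and library, as its whole numbers show. Per the submitters' processing notes, the build was GRCm39 and the tools included HISAT2 2.2.1, featureCounts 2.0.3 (Subread), StringTie 2.2.1, fastp 0.23.2 and DESeq2 1.38.3, with no roles stated. Neither the annotation nor the handling of multi-mapped reads is given in the sources used here. Entries without a gene name held 0.4835% to 0.6456% of counts in the 8 libraries and were left out. Where nothing says that replicates come from separate experiments, p-values measure the spread between these mice only.

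Genes were tested with the robust quasi-likelihood F test of edgeR 4.0.16 in R 4.3.3, with TMM scaling, after filterByExpr with a minimum count of 10. All 14 libraries entered 1 fit with group as its only term, 10 residual degrees of freedom and a biological coefficient of variation of 18.7%; ear minus dorsal was its contrast. P-values were adjusted after Benjamini and Hochberg over 15159 genes, with a threshold of 0.05, and adjusted p-values come from it where no other tool is stated. The script was tested on simulated data. CPM use TMM-scaled library sizes. The chi-square between replicates was 24.4 to 141.5 times its degrees of freedom, beyond sampling noise, so each counted as a sample. Alternatives were DESeq2 1.42.0, limma-voom (limma 3.58.1), RLE factors, total counts, haemoglobin and immunoglobulin genes removed, no filter, a CPM filter, the 8 libraries alone, the replicate number as a block and each library left out.

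Gene lists numbered 56, with 977 different genes, 921 of them tested and 83 in more than 1 list. The members, lists and rules were chosen with earlier results of these data known. The rule for named genes takes the 15 largest positive and 15 largest negative fold changes among genes that passed, had non-overlapping groups and averaged 1 or more in log2 CPM, the 3 passing members of lowest adjusted p in any list holding 3 or more, and a fixed set, 207 genes in all. Other list members, named to show exceptions or the spread within a list, were chosen after their values were seen. Some single-gene results that the rule names are not shown.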

Additional observations from a re-analysis of the deposited data

Results flagged for a closer look

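Of 268 groups of 4 libraries examined, 19 (7.09%) held 1 library far from the other 3, where chance gives about 1 in 20; no cause was tested. Mean log2 CPM of a list is given relative to the control mean. Skin and muscle genes stood at 6.57 in ear 4 and, as the highest dorsal value, at 0.90 in dorsal 2; Mybpc2 and Tnni2 stood at 71.0 and 74.5 CPM in ear 4. Pancreas genes stood at 8.13 in dorsal 4 and 1.93 in ear 4, and Ctrb1, a chymotrypsinogen, at 94.8 CPM in dorsal 4 and 0.70 CPM in ear 4. Stromal and endothelial genes were highest in ear 5, at 0.05.

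Ear 3 was far below the other ear libraries for secondary and tertiary granule genes (-0.04), for the eosinophil, basophil and mast cell list (-0.52) and for Retnlg (1.38 CPM). Dorsal 3 was far above the other dorsal libraries for S100a8 (288 CPM) and far below them for Ighg2b (319 CPM) and for the factors of the B cell to plasma cell switch (-0.19). Dorsal 2 was far above the other dorsal libraries for Cd3e (26.0 CPM), Cd8a (17.4 CPM), Foxp3 (8.88 CPM) and Cxcl10 (9.85 CPM).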

How the results depend on the processing

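The counts of 3528 higher and 3709 lower genes became 6513 and 2164 with total counts in place of TMM; the cause was not tested. In the other alternatives run they stayed within 1.5 times, and with each library left out in turn they ranged from 2976 to 3664 and from 3234 to 3572. Libraries of the same replicate number showed no sign of pairing, though so few pairs cannot exclude it. Correlations of their deviations were -0.084, 0.02 and 0.046, against -0.098 to 0.079 for differently numbered pairs. The fit with the replicate number as a block gave 2841 genes higher and 3193 lower. With ear 5 and dorsal 4 both left out, an alternative chosen after seeing the data, 2753 were higher and 3079 lower. Over the libraries left out, the ear minus dorsal difference ranged from -7.11 to -5.63 percentage points for the haemoglobin share and from 0.484 to 0.675 for the mitochondrially encoded share. Without 1 library, 4 against 3 allow no exact p below 0.0286, and the haemoglobin value of -5.63 without dorsal 3 and the mitochondrial value of 0.484 without ear 5 had p = 0.0571. Of 206 tested named genes 178 kept direction and side of the threshold under every alternative run, and of 55 list medians 25 moved less than the spread between replicates. Among values that moved by more than the spread between replicates or crossed the threshold, these changed sign: the pancreas median became 5.61 without dorsal 4 (lowest without 1 library -8.02) and 5.87 without ear 5 and dorsal 4, Ctrb1 5.65 (adjusted p = 0.18) and 6.06 (adjusted p = 0.149; lowest without 1 library -12.71), the skin and muscle median -0.18 (highest 7.21) and Tnnt3 -0.47 (adjusted p = 0.573; highest 6.1) without ear 4, and Ms4a1 0.23 with total counts (adjusted p = 0.0273). Small list medians also changed sign, such as those of inflammatory cytokines (0.05) and of complement and Fc receptors (0.10) with total counts and that of marginal zone macrophages (-0.01) without ear 5 and dorsal 4, and the adipose median without dorsal 2, dorsal 5 or ear 3. A count of 0 allows a level of up to 0.0976 CPM in these libraries, which covers counting error only.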

Other observations

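Counts of smaller cell populations are read against the shares over all genes, 23.3% higher and 24.5% lower. Of 17 genes of eosinophils, basophils and mast cells 6 were lower and 2 higher with ear treatment (median -0.32), with 3 lower under total counts, with the replicate block or without dorsal 3. Mcpt8, a basophil protease, was lower (-1.85), and Il5ra, the IL-5 receptor of eosinophils and some B cells, was higher (1.39). Of 19 stem and progenitor genes 10 were higher and 3 lower (median 0.42); the largest were Ly6a, which interferon also induces, at 2.26 ± 0.41, and Cd27, also a T cell gene, at 2.15, while Hoxa9 was lower at -1.92 ± 0.51. Megakaryocyte and platelet genes did not pass except Itgb3, the platelet integrin, at 0.50 (1 of 20, with 6 higher under total counts, 3 without ear 3 and none without ear 4). Of 7 marginal zone macrophage genes 3 were higher and none lower: Cd209a (2.44), Cd209b (1.15) and Siglec1 (0.59), lectins that bind microbial sugars or sialic acid. Without ear 5 and dorsal 4, 2 were higher and 1 lower: Siglec1 missed the threshold (0.54, adjusted p = 0.0673) and Marco, a scavenger receptor, passed as lower (-0.86, adjusted p = 0.0481; -0.51, adjusted p = 0.183 with all libraries).

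Signalling and complement genes moved both ways, and their counts stand beside 23.3% higher and 24.5% lower over all genes. Among 18 genes of interferon ligands, receptors and signal transduction 10 were higher and 1 lower, and 5 higher without ear 5 and dorsal 4. The chains of the type I interferon receptor went in opposite directions, Ifnar1 at 0.27 and Ifnar2 at -0.52. Of 16 B cell to plasma cell switch factors 8 were higher and 1 lower, the latter Ebf1, a factor of B cell identity (-0.23). The BAFF and APRIL list also holds Il6, Il6ra, Il21, Il21r, Cxcl12 and Cxcr4. Of its 11 tested genes 4 were higher, beside 23.3% over all genes, and 1, Il6, was lower. With total counts 7 were higher, and without ear 4 there were 3. Tnfrsf17, the plasma cell receptor BCMA, stood at 1.80. Naive T cell and homing genes were higher in 11 of 14 cases (median 0.75). Of 19 complement and Fc receptor genes 7 were higher and 6 lower, with a median of -0.13 that became 0.10 with total counts, when 3 were lower. The higher members included the soluble components C2 (0.96), C4b (0.93) and C3 (0.43), and the lower ones the receptors C3ar1 (-2.87), Fcgr4 (-2.51) and C5ar1 (-1.70). Of 20 immediate early and heat shock genes 6 were higher and 4 lower, near the shares over all genes, with 2 lower without dorsal 2 or without ear 5. Among them Egr1 (0.58) and Fosb (0.73) were higher, and Atf3 (-1.45) and Jun (-0.67) lower.

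Of 7 pancreas genes 6 were lower, with dorsal 4 high; 1 was lower without dorsal 4, ear 1 or ear 5, and none without ear 3. Of 6 skin and muscle genes 5 were higher, with ear 4 high, and none without ear 4, dorsal 3 or dorsal 4, with 2 without dorsal 2 and 1 without dorsal 5. Pparg, listed with adipose genes and also expressed by macrophages, was the 1 of 7 that was lower (-0.70), and Serpina1a, a liver gene, was higher (0.51). The summed level of 7 listed liver genes was 27.5 to 31.8 CPM in the ear and 18.7 to 23.1 CPM in the dorsal libraries. These ranges did not overlap, as in 43.0% of all genes. In each of these libraries 4 to 6 of the 7 had 0 counts, and Serpina1a was the only 1 tested. The sum is therefore not read as liver RNA.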
